A study of Mus musculus with 24 samples.

Results

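The 6 STAT genes described here, Stat2, Stat3, Stat4, Stat5a, Stat5b and Stat6, were taken by name from a table of 22009 named genes measured by RNA sequencing in mouse CD4+ T cells. All 6 were expressed in all 24 libraries. All passed the filter used for testing, a mean of at least 1 RPKM (read counts scaled to transcript length and to the mapped reads of the library), and did so at rest, in each skewing condition and after actinomycin, so none was tested only because of the group in which it was high.

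STAT proteins (signal transducers and activators of transcription) lie latent in the cytoplasm, are phosphorylated by Janus kinases bound to an occupied cytokine receptor, pair through their SH2 domains and move to the nucleus. There they bind short DNA elements in target genes, among them the genes of the SOCS proteins that switch the pathway off. In CD4+ T cells STAT4 carries the IL-12 signal towards the Th1 fate, STAT6 carries the IL-4 signal towards the Th2 fate, STAT5A and STAT5B carry the IL-2 signal, STAT3 serves IL-6, IL-10 and IL-21, and STAT2 joins IRF9 in the complex that answers type I interferon. mRNA levels of these genes do not measure phosphorylation, so the values below concern transcript abundance only.

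CD4+ cells of adult WT C57BL/6 mice were purified from spleen by magnetic negative selection, and the time course used 1 pool of cells from several mice. There were 2 libraries of resting, unstimulated cells and 1 library for each of 3 conditions at 4, 8, 12, 16, 20 and 24 h. Th0 cultures received anti-CD3 and anti-CD28, Th1 cultures also IL-12 and anti-IL-4, and Th2 cultures also IL-4 with antibodies to IFN-γ and IL-12. In a further 4 libraries actinomycin, an inhibitor of transcription, was given after 16 h of stimulation and cells were taken 0, 1, 2 or 4 h later. Their skewing condition is not in the labels. Mapped reads, recovered from the steps between low RPKM values, were between 17512385 and 33017133 per library.

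Resting and time-course culture libraries bear different tags in their labels. The labels do not say what the tags stand for, and whatever it is cannot be told apart from stimulation. Cultures of 1 pool are not biological replicates, and p-values measure only the spread between these libraries. Markers of T cells summed to between 2348 and 2373 RPKM at rest and between 1448 and 1603 RPKM at 4 h. The 11 macrophage markers summed to between 613 and 629 RPKM at rest, between 50.04 and 83.1 RPKM at 4 h and between 10.1 and 14.5 RPKM at 24 h, and 8 of the 9 that were tested fell by 4 h. The 8 measured red cell markers summed to between 38898 and 42449 RPKM at rest, between 29411 and 47142 RPKM at 4 h and between 142 and 212 RPKM at 24 h. The 8 B cell markers summed to between 74.2 and 84.6 RPKM at rest and between 10.1 and 19.3 RPKM at 24 h. No marker of these lists was at 0 in every library. The part that these cells have in the differences between rest and culture was not tested, and in bulk RNA fewer cells of a type cannot be told apart from less RNA per cell.

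In GENCODE vM21 (GRCm38, the build that the submitters' notes name), Stat2 lies on chromosome 10 from 128270559 to 128292849 and Stat6 from 127642986 to 127660957, both on the plus strand. Stat4 lies on chromosome 1 from 51987148 to 52107189 on the plus strand. The other 3 genes stand next to each other on chromosome 11. Stat5b runs on the minus strand from 100780731 to 100850724, Stat5a on the plus strand from 100859351 to 100885169, and Stat3 on the minus strand from 100885098 to 100939540. Stat5a and Stat3 converge, and their 3' ends overlap by 72 bases, where reads cannot be assigned without strand. Whether the counting used strand is not given in the sources used here. Of the 50-base windows of the Stat5a transcripts, 8.21% also occur in Stat5b, and of those of Stat5b, 10.99% occur in Stat5a, so a small share of the reads of either gene could belong to the other. For Stat4, 21.7% of the windows also occur in Gm28177, an overlapping non-coding transcript that is not used here. For Stat2, Stat3 and Stat6 the share found in any other gene was 0.788%, 0.555% and 0.0%.

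Promoters of the STAT genes were read for 3 patterns on both strands, since STAT genes can themselves respond to cytokines. These were TTCNNNGAA, the core bound by most STAT dimers, the same TTC and GAA with 4 free bases between them, the spacing that STAT6 prefers, and GAAA followed after 2 free bases by GAAA again, as in the interferon-stimulated response element bound by the STAT2 and IRF9 complex. RefSeq promoter windows (GRCm38.p6, 250 bases before to 50 bases after an annotated start) matched all 6 genes, with 9 windows in all because Stat4, Stat5a and Stat5b have 2 annotated starts each. The 250 bases before the start are shown for Stat2, whose window held 2 of the patterns. They are also shown for the downstream start of Stat4, the only other window with a match. Stat3 is shown too, since like Stat2 it was lower in Th2 than in Th0 and Th1, though its window held no match. Capitals mark matches, all else is in lower case, and each sequence runs 5' to 3' on the strand of the gene.
Stat2, chr10:128270248-128270497, plus strand: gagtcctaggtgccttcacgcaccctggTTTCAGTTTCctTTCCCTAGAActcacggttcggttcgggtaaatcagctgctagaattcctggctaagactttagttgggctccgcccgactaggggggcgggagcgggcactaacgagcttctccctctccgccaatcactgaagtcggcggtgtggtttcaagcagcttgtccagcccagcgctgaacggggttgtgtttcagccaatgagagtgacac
Stat4 downstream start, chr1:52007990-52008239, plus strand: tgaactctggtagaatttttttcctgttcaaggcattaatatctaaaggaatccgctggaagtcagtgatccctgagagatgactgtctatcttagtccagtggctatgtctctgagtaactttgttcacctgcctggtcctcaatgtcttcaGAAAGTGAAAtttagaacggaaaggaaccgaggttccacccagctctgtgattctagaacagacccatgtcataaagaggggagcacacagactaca
Stat3, chr11:100939541-100939790, minus strand: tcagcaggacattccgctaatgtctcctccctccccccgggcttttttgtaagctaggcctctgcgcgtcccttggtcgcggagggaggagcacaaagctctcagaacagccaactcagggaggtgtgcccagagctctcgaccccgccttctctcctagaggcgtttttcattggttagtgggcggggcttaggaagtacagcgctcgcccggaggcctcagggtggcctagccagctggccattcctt

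In the Stat2 window, TTTCAGTTTC, which is the GAAA repeat read on the other strand, begins at position -222 from the start, and TTCCCTAGAA, a match to TTC and GAA with 4 bases between, begins at position -210, with no overlap between them. In the Stat4 window, GAAAGTGAAA begins at position -97. No window of the 6 genes held TTCNNNGAA. Over all 32851 promoter windows of the same length, 8.3% held TTCNNNGAA, 6.95% the wider spacing and 3.44% the GAAA repeat. A match describes letters only and was not tested for binding.

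At rest the 6 genes differed widely in level. RPKM is scaled to transcript length, but the length used for each gene was not recovered. The order of the genes below depends on those lengths. Stat6 was the highest at 117 and 127 RPKM, followed by Stat3 at 78.7 and 79.6 RPKM, Stat5b at 56.2 and 56.0 RPKM, Stat4 at 42.3 and 43.8 RPKM, Stat5a at 24.7 and 26.6 RPKM and Stat2 at 18.7 and 18.6 RPKM. The order was the same in both resting libraries, and no neighbours in it overlapped. Stat2 remained the lowest of the 6 in all 24 libraries. The place of Stat5a changed most, from the fifth at rest to the highest of the 6 in Th2 at 16, 20 and 24 h and in Th0 at 24 h. Stat3 was the highest at 4 h in Th0 and Th1, and Stat6 in each of the other libraries. Summed over the 6 genes, the level was 338 and 351 RPKM at rest, between 633 and 814 RPKM at 4 h and between 427 and 498 RPKM at 24 h.

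**Figure D1:**
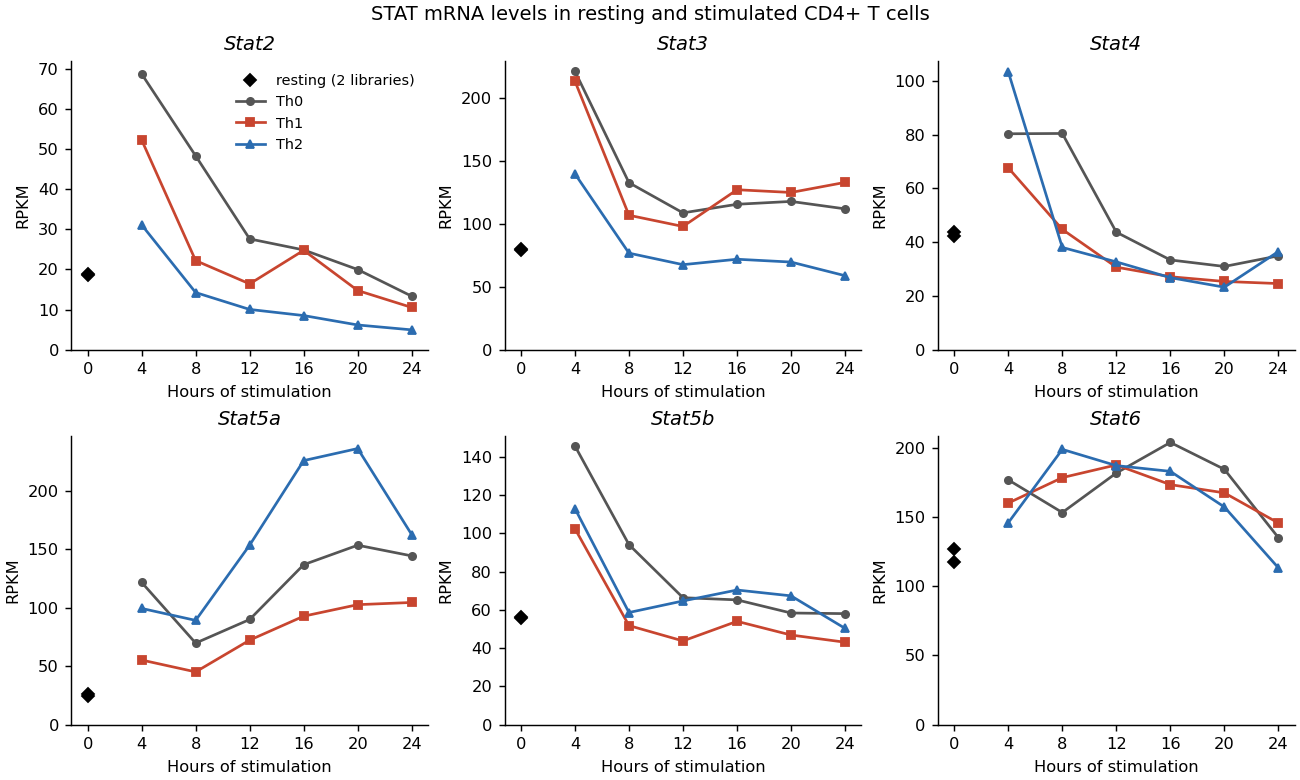
RPKM of each STAT gene (y axis, from 0) against hours of stimulation (x axis), with diamonds for the 2 resting libraries and lines through the single Th0, Th1 and Th2 library at each time. Stat2, Stat3 and Stat5b were highest at 4 h in each condition, whereas Stat5a reached its highest level at 20 h in Th0 and Th2 and at 24 h in Th1.

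Time points were first compared with rest to ask how stimulation changed the genes. At 4 h all 6 genes were above both resting libraries in each of the 3 cultures. The share of all genes for which this held was not counted. Stat5a, Stat3 and Stat5b rose at least 2-fold at an adjusted p under 0.05 (limma on log2(RPKM + 0.5), adjusted over all 10897 genes tested), which is 3 of 6, where 2.61% of all genes rose, 7.97% fell and 10.6% changed in either direction. The median log2 difference over the 6 genes was 1.16, beside -0.04 over all genes. By 24 h only Stat5a of the 6 was still past this threshold, where 12.7% of all genes rose, 17.4% fell and 30.1% changed.

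Stat5a, which transmits signals of IL-2 and related cytokines, had the longest lasting rise. Its level was 25.6 ± 1.35 RPKM (SD, n = 2) at rest and 92.3 ± 33.8 RPKM (SD, n = 3) at 4 h. In Th0 it was 122, 69.9, 90.1, 137, 154 and 145 RPKM from 4 to 24 h. In Th1 it was 55.4, 45.2, 72.4, 92.9, 103 and 105 RPKM, and in Th2 99.6, 89.3, 154, 226, 236 and 163 RPKM. All 18 cultures lay above both resting libraries, and each series dipped at 8 h before it climbed again. Against rest the log2 difference was 1.76 ± 0.43 (SE) at 4 h (adjusted p = 0.00474 by limma), 2.58 at 20 h (adjusted p = 7.33e-05) and 2.38 at 24 h (adjusted p = 0.000143), and Stat5a passed the threshold at each of the 6 time points. At 8, 12, 16 and 20 h this held, as a rise, for 6.42%, 10.7%, 11.2% and 12.9% of all genes. Relative to rest, the Th2 library at 20 h stood 9.23-fold higher, the Th0 library 5.999-fold and the Th1 library 4.01-fold. Without the Th0 cultures the adjusted p was 0.0589 at 4 h and 0.0676 at 8 h. At 8 h it was also 0.0828 without resting replicate 1 and 0.0629 without resting replicate 2.

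Stat5b, the close relative of Stat5a with largely shared functions, rose early and fell back. It was 56.1 ± 0.147 RPKM (SD, n = 2) at rest. At 4 h it was 146, 102 and 113 RPKM in Th0, Th1 and Th2. From 8 to 24 h the 15 cultures lay between 43.1 and 94.2 RPKM, on either side of rest. The log2 difference at 4 h was 1.08 ± 0.24 (SE, adjusted p = 0.0026 by limma), and without the Th0 cultures it was 0.93, under 2-fold. At 24 h it was -0.16 (95% interval -0.67 to 0.35).

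The ratio of Stat5a to Stat5b therefore turned over. It was 0.439 and 0.475 at rest, and at 4 h 0.836, 0.540 and 0.881 in Th0, Th1 and Th2. At 24 h it was 2.49, 2.43 and 3.23 in the same order. Stat5b had the higher RPKM of the pair at rest and at 4 h in all 3 conditions, and Stat5a from 12 h on. Which of the 2 is higher depends on the transcript lengths used, whereas the change of the ratio over time does not. In Th2 the ratio was above that of Th0 and of Th1 at each of the 6 time points. In the actinomycin libraries it was between 2.42 and 3.01.

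**Figure D2:**
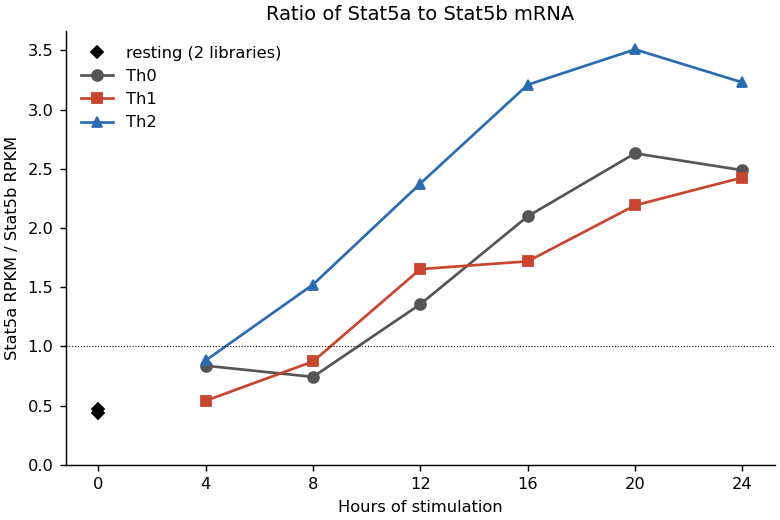
Ratio of Stat5a RPKM to Stat5b RPKM (y axis, from 0) against hours of stimulation (x axis), with diamonds for the 2 resting libraries and lines for Th0, Th1 and Th2. The dotted line is a ratio of 1, which the Th2 series passed by 8 h (1.52) and the Th0 and Th1 series by 12 h (1.36 and 1.65).

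Stat3, which serves IL-6 and IL-21 among others, also peaked at 4 h. It was 79.1 ± 0.583 RPKM (SD, n = 2) at rest. In Th0 it was 221, 133, 109, 115, 118 and 112 RPKM from 4 to 24 h. In Th1 it was 213, 107, 97.8, 127, 125 and 133 RPKM, and in Th2 140, 76.6, 67.5, 71.8, 69.5 and 58.7 RPKM. All 12 Th0 and Th1 cultures lay above both resting libraries, whereas 5 of the 6 Th2 cultures, those from 8 h on, lay below both. The log2 difference at 4 h was 1.24 ± 0.35 (SE, adjusted p = 0.0132 by limma). The adjusted p was between 0.067 and 0.0815 without either resting library, the Th0 cultures or the Th1 cultures. At 24 h the difference was 0.27 (95% interval -0.48 to 1.02).

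Stat2, the partner of IRF9 in the interferon response, peaked at 4 h in each condition and then fell below rest. At rest it was 18.7 ± 0.107 RPKM (SD, n = 2). In Th0 it was 68.7, 48.3, 27.6, 24.8, 20.0 and 13.3 RPKM from 4 to 24 h. In Th1 it was 52.3, 22.2, 16.4, 24.7, 14.7 and 10.5 RPKM, and in Th2 31.1, 14.2, 10.0, 8.49, 6.15 and 4.93 RPKM. All 3 cultures were above rest at 4 h and all 3 below it at 24 h. The log2 difference was 1.34 ± 0.60 (SE) at 4 h and -1.03 ± 0.60 at 24 h, with adjusted p-values of 0.0981 and 0.14 by limma. Here the spread includes the difference between conditions. With the skewing condition as a term, an alternative added after the data were seen, the adjusted p-values were 1.68e-05 and 6.99e-05. Without the Th2 cultures the adjusted p at 4 h was 0.00216.

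Stat4, which carries the IL-12 signal, was above rest early and below it late. It was 43.0 ± 1.00 RPKM (SD, n = 2) at rest and 80.4, 67.7 and 103 RPKM at 4 h in Th0, Th1 and Th2. At 16 h it was 33.4, 27.1 and 26.8 RPKM and at 20 h 31.0, 25.4 and 23.2 RPKM, below both resting libraries in all 3 conditions. At 24 h the values were 34.9, 24.6 and 36.5 RPKM, again all below rest. The log2 difference was 0.93 ± 0.27 (SE) at 4 h (adjusted p = 0.0128 by limma) and -0.70 at 20 h (adjusted p = 0.0296), both under 2-fold. The difference at 4 h was past 2-fold once the Th1 cultures were left out (1.07) or values were scaled by the median of ratios (1.01).

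Stat6, which carries the IL-4 signal, had the narrowest range over the 18 cultures relative to its level. It was 122 ± 6.54 RPKM (SD, n = 2) at rest. At 16 h it was 204, 173 and 183 RPKM in Th0, Th1 and Th2, and at 24 h 135, 146 and 113 RPKM. Over the 18 cultures the lowest was 113 RPKM, in Th2 at 24 h, which was the only culture below both resting libraries, and the highest 204 RPKM, in Th0 at 16 h. From 4 to 20 h the log2 differences from rest were between 0.40 and 0.61, each at an adjusted p under 0.05 by limma and under 2-fold. At 24 h the difference was 0.10 (95% interval -0.17 to 0.38).

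Between successive time points, fitted over the 18 cultures with the condition as a term, 4 of 6 STAT genes were lower at 8 h than at 4 h at an adjusted p under 0.05, where this held for 20.1% of all 10737 genes. The log2 differences were -0.94 ± 0.17 (SE) for Stat2, -0.86 ± 0.12 for Stat3, -0.85 ± 0.13 for Stat5b and -0.67 ± 0.19 for Stat4, all under 2-fold, a fall that 1.92% of all genes passed. Without the Th0 cultures those of Stat2 and Stat4 were -1.16 and -1.01. The only later step past an adjusted p of 0.05 was that of Stat5a from 8 to 12 h, 0.61 ± 0.16 (SE, adjusted p = 0.037 by limma), where 2.18% of all genes were higher. In the 3 steps after that, 0.652%, 1.46% and 1.35% of all genes passed in either direction.

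The 3 conditions were compared next, with the time point as a factor, to ask how Th1 and Th2 skewing changed the genes. Each skewing mix holds a cytokine and antibodies, among them anti-IFN-γ in Th2, and their parts cannot be told apart. Stat2 fell in Th2 against Th0 and Stat5a rose in Th2 against Th1. The 2 genes thus moved opposite ways, and Stat3 was lower in Th2 than in both other conditions by less than 2-fold. Stat6 and Stat4, the factors that IL-4 and IL-12 activate, were not past the threshold in any of the 3 comparisons. The Th2 comparisons share the Th2 libraries, and those with Th0 share the Th0 libraries.

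In Th2 against Th0, 1 of 6 STAT genes was called, Stat2, where 1.83% of all genes fell and 2.01% changed. Stat2 was at 0.453, 0.295, 0.363, 0.342, 0.308 and 0.370 of its Th0 level from 4 to 24 h. Its log2 difference was -1.46 ± 0.12 (SE, adjusted p = 3.86e-07 by limma). Stat3 was at between 0.525 and 0.632 of its Th0 level at all 6 time points, a log2 difference of -0.75 ± 0.08 (SE, adjusted p = 9.68e-06 by limma). Stat5a was higher in Th2 at 5 of 6 time points and lower at 4 h, with ratios of 0.817, 1.28, 1.71, 1.65, 1.54 and 1.13 and a log2 difference of 0.39 ± 0.11 (SE, adjusted p = 0.0194 by limma). The differences of Stat4 (-0.30, 95% interval -0.58 to -0.02), Stat5b (-0.16, -0.36 to 0.04) and Stat6 (-0.08, -0.26 to 0.10) had adjusted p-values of 0.101, 0.214 and 0.483 by limma.

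In Th2 against Th1, 1 of 6 STAT genes was called, Stat5a, where 0.568% of all genes rose, 1.39% fell and 1.96% changed. Stat5a was higher in Th2 at all 6 time points, by 1.80, 1.98, 2.12, 2.43, 2.30 and 1.55 times. Its log2 difference was 1.00 ± 0.11 (SE, adjusted p = 1.68e-05 by limma), at the 2-fold threshold itself, and it was 0.985, 0.946 and 0.962 without the libraries of 12, 16 and 20 h, under 2-fold. Stat2 had -0.96 ± 0.12 (SE, adjusted p = 3.3e-05 by limma) and passed 2-fold without the libraries of 4, 8 or 12 h (-1.003, -1.03 and -1.01). Stat3 was lower in Th2 at all 6 time points, from 0.718 of the Th1 level at 8 h to 0.442 at 24 h, with -0.74 ± 0.08 (SE, adjusted p = 1.25e-05 by limma). Stat5b was higher at all 6 time points, with 0.33 ± 0.10 (SE, adjusted p = 0.0311 by limma). Stat4 had 0.15 (95% interval -0.13 to 0.43) and Stat6 -0.06 (-0.24 to 0.12).

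In Th1 against Th0 none of the 6 genes was past both thresholds by limma, where 0.494% of all genes were, and 4 of 6 had an unadjusted p under 0.05, as did 16.4% of all genes. Stat5a (-0.61 ± 0.11, SE), Stat2 (-0.50 ± 0.12) and Stat5b (-0.49 ± 0.10) were lower in Th1 at an adjusted p under 0.05 (0.00847, 0.0347 and 0.0105 by limma), which held for 1.75% of all genes. Stat4 was lower in Th1 at all 6 time points, with -0.44 ± 0.13 (SE, adjusted p = 0.107 by limma). Stat3 had -0.01 (95% interval -0.18 to 0.17) and Stat6 -0.02 (-0.20 to 0.16), on either side of Th0 at 3 time points each. An exact two-sided permutation of the sign of the difference within the 6 time points gave p = 0.03125, the smallest it allows, for each comparison in which all 6 time points went the same way.

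**Figure D3:**
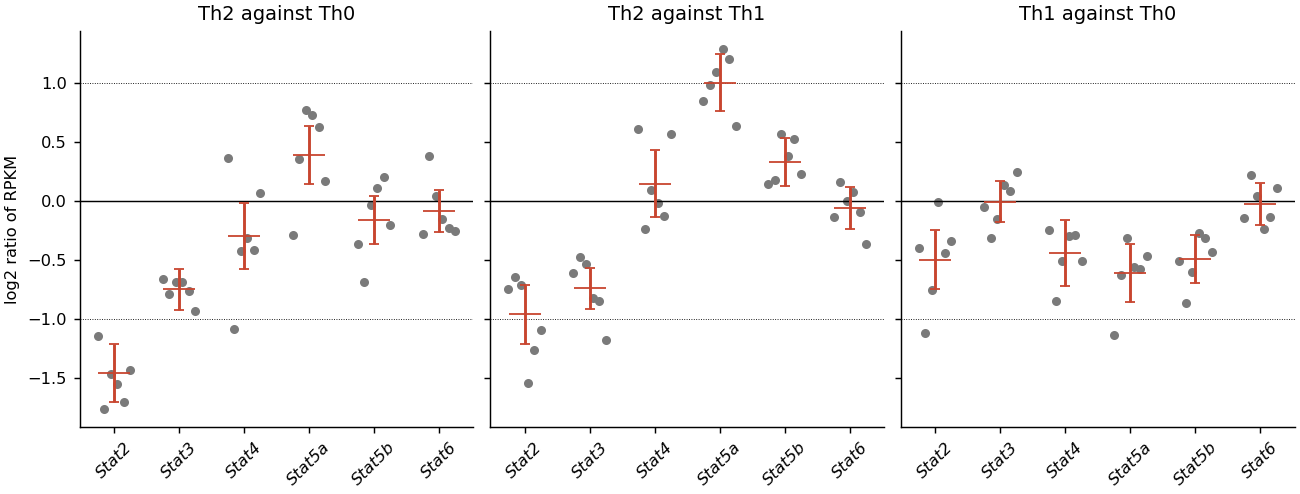
Log2 ratio of RPKM (y axis) for each STAT gene in 3 comparisons, with a grey point for each of 6 time points from 4 h on the left to 24 h on the right, and in red the limma difference on log2(RPKM + 0.5) with its 95% interval. Dotted lines mark 2-fold. All 6 points of Stat2 and Stat3 lie below 0 in both Th2 panels, and all 6 of Stat5a lie above 0 in Th2 against Th1.

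Whether these differences widened with time was tested as a linear trend over 4 to 24 h by condition. None of the 6 genes passed in any of the 3 comparisons by limma, and 0, 1 and 1 had an unadjusted p under 0.05 for Th2 against Th0, Th2 against Th1 and Th1 against Th0. Among all genes 3.93%, 0.95% and 0.0279% passed, and 23%, 18.2% and 9.23% had an unadjusted p under 0.05.

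Of the variance of log2 values over the 18 cultures, condition took 38.0% for Stat2, 47.5% for Stat3 and 43.8% for Stat5a, beside 59.1%, 48.3% and 49.1% for the time point. For Stat4, Stat5b and Stat6 the condition took 8.71%, 19.3% and 2.82%. Within time points, Stat2 and Stat3 varied together (Pearson's r = 0.92 over 18 cultures), and Stat5a ran with Stat5b (0.68) and against Stat3 (-0.68). These are descriptions over libraries of 1 pool.

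The rest of the pathway was read from lists of receptors, ligands, kinases, inhibitors, partners and known target genes. Beside the counts at 4 h below, 2.61% of all genes rose and 7.97% fell. At 4 h against rest, 7 of 12 tested cytokine genes rose, among them Il2 (9.67-fold), Il13 (9.50-fold), Il4 (8.13-fold) and Lif (7.12-fold), with a list median of 1.81 on the log2 scale. Of 22 receptor genes 4 rose, namely Ifngr1 (4.57-fold), Il4ra (3.96-fold), Il2ra (3.94-fold) and Csf2rb2 (2.53-fold), and 2 fell. The call of Il4ra was lost without either resting library (adjusted p = 0.158 and 0.148 by limma), without the Th0 or Th2 cultures (0.123 and 0.195) and without the filter on low values (0.0578). Of the 4 Janus kinases only Jak3, the partner of the common gamma chain, passed both thresholds, at 0.451 of rest, and Jak2 was 1.79-fold higher at an adjusted p of 0.00113 by limma. Among 20 inhibitors Socs1 (7.86-fold) and Cish (4.51-fold), both feedback inhibitors of STAT signalling, rose, and Ptpn6, a tyrosine phosphatase, fell to 0.412 of rest. Of 6 STAT5 targets 3 rose, Cish, Il2ra and Pim1 (2.14-fold), beside the rise of Stat5a and Stat5b. The other target lists did not all follow their STAT gene. Of 10 STAT2 targets 0 rose and 2 fell, with a list median of -0.16, although Stat2 was above rest. None of 6 STAT4 targets passed both thresholds. Of 6 STAT3 targets 2 rose and 1 fell, and of 4 STAT6 targets 1 rose.

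By 24 h the ligands and receptors had parted. Of 12 cytokine genes 6 had risen, led by Il2 (73.2-fold), Il3 (16.2-fold), Il13 (11.8-fold) and Lif (7.73-fold). Of 22 receptor genes 3 had risen, namely Il2ra (12.4-fold), Il12rb1 (6.49-fold) and Il15ra, and 11 had fallen. At 24 h 12.7% of all genes had risen and 17.4% had fallen, so the receptor rises were near the share of all genes. Jak1 fell to 0.413 of rest. Of 20 inhibitors Cish (6.64-fold), Socs2 (4.33-fold) and Socs1 (3.24-fold) had risen, also near the share of all genes. Socs3 fell to 0.282 and Usp18 to 0.349 of rest. Of 10 STAT2 targets 8 had fallen, with a list median of -2.52, and Irf9 was at 0.326 of rest. The largest falls were those of Rsad2 (0.0163 of rest), Irf7 (0.0672), Isg15 (0.0951) and Oas1a (0.106). Of 6 STAT5 targets 3 had risen, and of 6 STAT4 targets 1 had risen and 2 had fallen. Of 6 STAT3 targets 2 had fallen, and none of 4 STAT6 targets passed both thresholds. Macrophage, red cell and B cell markers fell over the same interval, as given above. So did 4 of 5 NK cell markers, whereas Eomes rose, from a mean of 8.38 RPKM at rest to 18.4 RPKM at 24 h. The sum of the 5 NK cell markers went from between 83.9 and 85.04 RPKM to between 23.2 and 34.1 RPKM. Both tested dendritic cell markers fell too. The part of these cells in the falls was not tested. The share of rises among all genes called at 24 h was 42.3% in the deposited values, 51.7% after scaling by the median of ratios and 54% after quantile normalization. At 4 h it was 24.7% as deposited and 43.5% with quantile normalization. On the log2 scale the all-gene median at 24 h lay at -0.04 with the deposited values and at 0.13 with quantile normalization.

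Between conditions the target lists went different ways. Among all genes 1.83% fell in Th2 against Th0, and 0.568% rose and 1.39% fell in Th2 against Th1. For Th1 against Th0, 0.494% changed in either direction. In Th2 against Th0, 7 of 9 tested STAT2 targets fell, with a median log2 difference of -1.53 beside 0.002 over all genes, led by Ifit3 (0.181 of Th0), Oasl2 (0.198), Ifit1 (0.282) and Irf7 (0.316). Irf9, the DNA-binding partner of STAT2, was at 0.473 (adjusted p = 1.08e-06 by limma). In Th2 against Th1, 6 of 9 fell, with a median of -1.27. Stat2 was lower at an adjusted p under 0.05 in both comparisons. In Th1 against Th0 no STAT2 target passed by limma, and 2 of 9 had an unadjusted p under 0.05.

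STAT4 targets separated Th2 from Th1 while Stat4 itself did not. In Th2 against Th1 all 6 tested fell, with a median of -1.62. They were Ifng (0.178 of Th1), Tbx21 (0.213), which encodes the Th1 factor T-bet, Il18r1 (0.321) and Il12rb2 (0.329), which encodes a chain of the IL-12 receptor, followed by Il18rap and Furin. Of the 5 NK cell markers, 3 were lower in the same comparison at an adjusted p under 0.05, Ncr1 (0.477 of Th1, called), Klrd1 (0.530) and Klre1 (0.573), and Klrb1c was higher (1.68-fold). Their sum was between 32.7 and 65.2 RPKM in Th1 and between 23.2 and 54.7 RPKM in Th2, and the part of NK cells in the differences of this list was not tested. In Th2 against Th0, Tbx21 (0.292) and Il12rb2 (0.415) fell. In Th1 against Th0, Ifng (8.87-fold) and Furin (2.07-fold) rose. The NK cell markers were mixed in this comparison. Ncr1 rose (2.38-fold), and mean levels in Th0 and Th1 were 13.2 and 15.9 RPKM for Klrd1 and 2.70 and 4.23 RPKM for Klre1. Those of Eomes (19.4 and 11.8 RPKM) and Klrb1c (3.85 and 2.67 RPKM) were lower in Th1.

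STAT6 targets did so in the other direction. In Th2 against Th1 all 4 tested rose, Il4i1 (4.68-fold), Fcer2a (4.40-fold), Gata3 (3.03-fold), the Th2 master factor, and Il4ra (2.41-fold), with a median of 1.87. The 8 B cell markers summed to between 10.1 and 41.8 RPKM in Th1 and between 19.2 and 62.03 RPKM in Th2. The part of B cells in the differences of this list, Fcer2a among them, was not tested. Il4ra, which encodes the receptor that activates STAT6, went from a mean of 40.6 RPKM in Th1 to 125 RPKM in Th2, and its log2 difference was 0.945 without the libraries of 4 h. In Th2 against Th0 none of the 4 passed both thresholds by limma, 3 of them being higher at an adjusted p under 0.05, and in Th1 against Th0 Il4ra (0.373 of Th0), Il4i1 (0.427) and Fcer2a (0.431) fell.

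Cish was the only 1 of 6 STAT5 targets and of 20 inhibitors past both thresholds in Th2 against Th1, at 2.25-fold higher (adjusted p = 1.18e-06 by limma). At under 2-fold, 1 further inhibitor, Socs1 (1.57-fold), was higher and 1, Socs3, lower at an adjusted p under 0.05. The mean of Cish was 139 RPKM in Th2, 79.2 RPKM in Th0 and 63.2 RPKM in Th1, which is the order of Stat5a (161, 119 and 78.9 RPKM). Of the STAT3 targets none passed both thresholds in Th2 against Th0 or against Th1 by limma. Socs3 was at 0.502 and 0.587 and Bcl3 at 0.582 and 0.538 of the Th0 and Th1 levels, whereas Batf was at 1.52 and 1.53 times, each at an adjusted p under 0.05. Receptors that fell in Th2 against Th0 were Il7r (0.313), Il12rb2 and Ifngr1 (0.470), the last at under 2-fold without the libraries of 8 h. No Janus kinase passed both thresholds between conditions by limma.

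**Figure D4:**
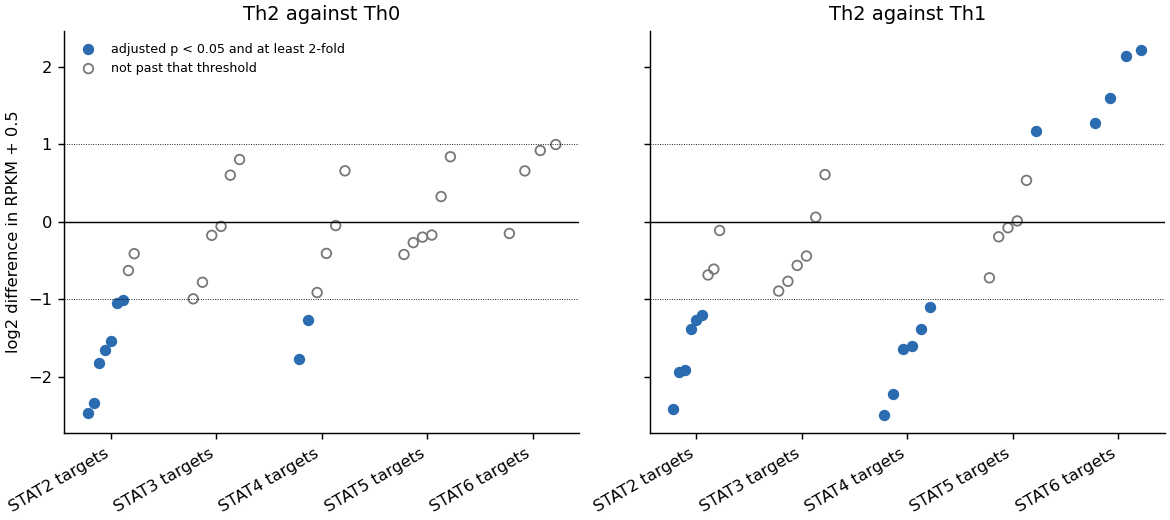
Log2 difference on log2(RPKM + 0.5) (y axis) of the tested genes of 5 STAT target lists (x axis, sorted within each list), in Th2 against Th0 on the left and Th2 against Th1 on the right. Filled points passed an adjusted p of 0.05 and 2-fold (dotted lines), which 7 of 9 STAT2 targets did on the left, and all 6 STAT4 and all 4 STAT6 targets on the right.

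The actinomycin libraries ask how long the mRNAs last once transcription stops. RPKM is a share of the mapped reads, so an mRNA that decays more slowly than most gains share. After 4 h Stat2 stood at 202% of the library at 0 h, Stat5a at 145%, Stat6 at 124%, Stat5b at 122%, Stat3 at 114% and Stat4 at 64.02%. Only Stat4 was lower at 4 h than at the start.

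Stat2 went from 6.79 to 8.07, 9.12 and 13.7 RPKM at 0, 1, 2 and 4 h, higher at each step. The slope over 4 h was 0.96 ± 0.28 on the log2 scale (SE, adjusted p = 0.00761 by limma), under 2-fold, and an exact two-sided permutation of the 4 times gave p = 0.04167, the smallest it allows. It was the only 1 of 6 past an adjusted p of 0.05, which 8.95% of all 10571 genes were in this direction. None was past both thresholds by limma, where 9.55% of all genes were, and 2 of 6 had an unadjusted p under 0.05, as did 33% of all genes. Without the library at 0 h the adjusted p was 0.135, and without that at 4 h it was 0.459. Stat4 went from 29.0 to 23.8, 25.8 and 18.6 RPKM, a slope of -0.57 (95% interval -1.05 to -0.09, adjusted p = 0.0767 by limma). Stat5a was at 125, 154, 124 and 180 RPKM, with no steady course, and had a slope of 0.44 (95% interval -0.0041 to 0.88).

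Among the lists, 5 of 8 STAT2 targets rose in the same libraries, led by Isg15 (2.78-fold over 4 h), Rsad2 (2.73-fold), Oasl2 (2.38-fold) and Irf7 (2.23-fold), and 1 fell, where 3.97% of all genes rose and 5.58% fell. Without the library at 4 h the slopes of Isg15 and Oasl2 were -1.14 and -0.121, and that of Irf7 was 0.476 (adjusted p = 0.703 by limma). Of 12 cytokine genes 6 fell, led by Osm (0.210 of the start), Csf2 (0.388) and Ifng (0.407). Of 20 inhibitors 3 fell, Cish (0.421), Socs1 (0.439) and Pias1 (0.483), and Pias3 rose (2.18-fold). The slope of Cish was -1.25 on the log2 scale, -0.526 without the library at 0 h and -3.41 without that at 4 h. Without the library at 4 h the slopes of Osm, Csf2, Ifng and Socs1 were -4.24, -3.66, -2.42 and -2.12, and without that at 0 h that of Rsad2 was 2.503. Without the filter on low values the adjusted p of Isg15, Rsad2, Oasl2, Irf7, Osm, Csf2, Cish, Pias1 and Pias3 was between 0.0522 and 0.266 by limma, and without the library at 0 h that of Osm, Csf2, Ifng, Cish, Socs1, Pias1 and Pias3 was between 0.0539 and 0.484. At the start of the series Stat2 was at 6.79 RPKM, beside 24.8, 24.7 and 8.49 RPKM in Th0, Th1 and Th2 at 16 h. Stat5a was at 125 RPKM, beside 137, 92.9 and 226 RPKM. The 11 macrophage markers summed to between 57.7 and 80.7 RPKM in the actinomycin libraries. Of these markers Lyz2 was at 45.9 RPKM at the start, beside means of 14.2, 12.5 and 7.63 RPKM in Th0, Th1 and Th2. Over 4 h Cd68 rose 6.33-fold and Lyz2 fell to 0.465 of the start, whereas Csf1r, Vcam1 and Spic were not called. The part of these cells in the slopes and in the levels at the start was not tested.

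**Figure D5:**
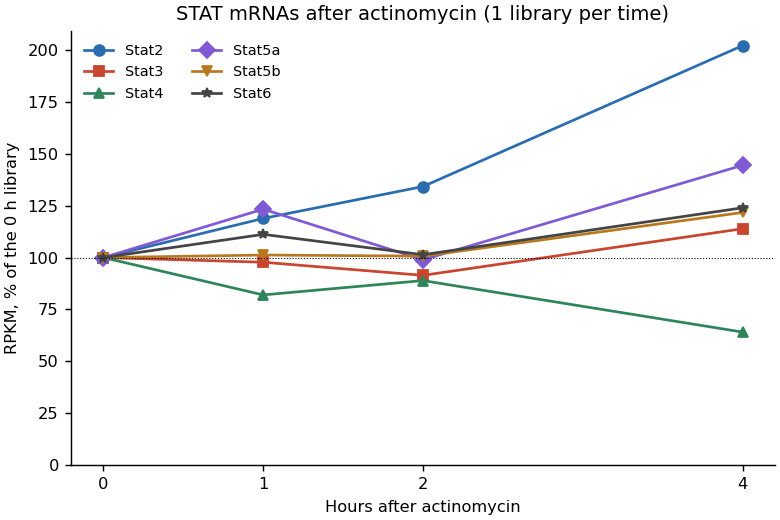
RPKM of each STAT gene as a percentage of the 0 h library (y axis, from 0) against hours after actinomycin (x axis), with 1 library at each time. Stat2 reached 202% and Stat4 64.02% at 4 h, and the other 4 genes lay between 114% and 145%.

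The genes whose log2 levels ran most like each STAT gene were sought over the 20 libraries of the time course, among the 8478 genes that averaged 5 RPKM or more. For Stat2 they were 2810474O19Rik (Pearson's r = 0.985), Gbp7 (0.973), an interferon-induced guanylate-binding protein, and Cyp2s1 (0.968). For Stat3 they were Cmtm6 (0.967), Icam1 (0.926), an adhesion molecule, and 4930431F12Rik (0.917). For Stat5a they were Cish (0.935), Sgsm2 (0.924) and Rab8b (0.921). For Stat4 they were Rundc3b (0.951), P2ry10 (0.948) and Arid4b (0.945), for Stat5b Rtf1 (0.929), Clint1 (0.926) and Cyhr1 (0.916), and for Stat6 Lrp10 (0.944), Scamp2 (0.928) and Atxn7l3 (0.927). No STAT gene was among the 3 most like another. These libraries share 1 pool of cells and a common course of time, and the values are descriptions.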

How the data were processed

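RNA of resting, cultured and actinomycin-treated CD4+ T cells was sequenced, and the table that the authors deposited holds RPKM by gene symbol, scaled to mapped reads and transcript length. The submitters' processing notes name BWA and GRCm38, and the counting tool is not given in the sources used here. Of 22010 entries, 1 had no name and summed to 0. Mapped reads per library were recovered from 1009 single-transcript genes whose values were whole multiples of 1 read (relative tolerance 1e-06), of which 616 gave the same totals. STAT gene values did not fall on such steps, and no counting interval is given. At the longest annotated transcript, the lowest value corresponds to 554 reads (counting SD 4.25%).

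The STAT genes and gene lists were chosen with earlier results of these data known. Groups follow the labels. limma 3.58.1 in R 4.3.3 was run on log2(RPKM + 0.5), which understates changes of low genes, with an intensity trend, and p-values were adjusted by Benjamini-Hochberg over every gene averaging 1 RPKM or more. A gene was called at an adjusted p under 0.05 and at least 2-fold. Time points were compared with rest over 20 libraries, conditions over 18 cultures with time as a factor, and actinomycin as a linear slope. The fits were tested on simulated data. Named are all STAT genes, at most the 4 largest called changes per list and comparison, and the 3 most correlated genes. Batf, Bcl3, Socs1, Socs3 and NK cell markers between conditions were named after their values were seen. So were Jak2 at 4 h, Il18rap and Furin in Th2 against Th1, and Il15ra, Usp18 and Eomes at 24 h. The same holds for the single macrophage markers in the actinomycin libraries. Promoters came from RefSeq and gene positions from GENCODE vM21. Python 3.11.15 with pandas 2.3.3 was used for the rest. A further gene of the family is not reported here.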

Additional observations from a re-analysis of the deposited data

How the results depend on the processing

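No paired analysis was possible because only the resting libraries carry replicate numbers, beyond the matching of conditions by time point that the reported fit and the exact sign permutation hold. The alternatives were other pseudocounts (0.1 and 1), other filters (none, or 5 RPKM), 3 other scalings, the haemoglobin genes left out, no intensity trend and fewer libraries. Each resting library or condition was also left out in turn against rest, and each condition between successive time points. Each time point was left out between conditions, and each actinomycin library from the slope. Of the counts of STAT genes called, 254 were within 1.5 times the count as reported and 16 were not. At 4 h against rest the count was 3, and 0 without the Th0 cultures. At 8 h it was 1, and 0 without resting replicate 1, without resting replicate 2 or without the Th0 cultures. At 24 h it was 1, and 2 with only the libraries of that time and rest or, added after the data were seen, with the condition as a term. From 4 to 8 h it was 0, and 2 without the Th0 cultures. In Th2 against Th1 it was 1, but 0 with a pseudocount of 1 or quantile normalization, 2 over 12 to 24 h only, and between 0 and 2 when a time point was left out. The trend of Th2 against Th0 had 0, and 1 without 4 h. The actinomycin slope had 0, and 1 with upper-quartile scaling. An exact permutation of 2 resting against 3 cultured libraries cannot go below p = 0.1.

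Signs turned for differences that had passed no threshold, except for Isg15 and Oasl2. Stat6 at 24 h against rest was -0.156 with quantile normalization. Stat5b in Th2 against Th0 was 0.0182 over 12 to 24 h. Stat3 in Th1 against Th0 was 0.0142 and 0.007 when scaled by the median of ratios and by the upper quartile, 0.0797 over 12 to 24 h, and between -0.0585 and 0.0533 with a time point left out. With a time point left out Stat6 was between -0.0723 and 0.0181 in Th1 against Th0 and between -0.1023 and 0.0011 in Th2 against Th1. With an actinomycin library left out the slopes were between -0.2575 and 0.341 for Stat3, -0.0309 and 0.5297 for Stat5a, -1.141 and 2.4708 for Isg15, and -0.121 and 1.7798 for Oasl2, each lowest without the library at 4 h. The cause was not tested. The 2 resting libraries and the single library for each culture and actinomycin time limit what could be shown.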
